A study of Mus musculus with 2 samples.

Results

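Epithelial cells of BALB/c thymus, mimetic cells among them, were compared with those of C57BL/6 (B6) thymus in 1 droplet library that pooled 6 mice. A droplet barcode entered when it held 500 or more detected genes, less than 15% mitochondrial UMIs, no UMI of Ptprc (the gene of the leukocyte antigen CD45), and at least 3 UMIs summed over Krt5, Krt8, Krt14, Krt18 and Epcam, which mark epithelium. UMIs are barcodes of single RNA molecules, so their number counts molecules. Each mouse carried 1 hashtag antibody, and a barcode went to a mouse when 1 of the 6 hashtags held at least 80% of at least 100 hashtag UMIs. Of 3447 barcodes, 2527 passed the gene and mitochondrial limits, 1808 of these were epithelial by the rule and 1492 were assigned to a mouse. The members are 368 B6 cells (180 and 188 in B6 mice 1 and 2) and 901 BALB/c cells (361 and 540 in BALB/c mice 1 and 2). The other 223 epithelial cells came from 2 NOD mice, which entered fits only to share the estimate of the spread between mice. They were left out of fits within a class where they had under 10 cells.

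All mice were 6-week-old females without a stated genetic change or treatment, so the groups differ by inbred strain alone as far as the labels say. Thymi were digested, leukocytes bearing CD45 were depleted on magnets, and medullary thymic epithelial cells (mTEC) with low MHC class II were sorted without surface podoplanin (gene Pdpn) or CD104 (gene Itgb4). Mimetic cells are mTEC that switch on the programs of peripheral cell types, such as the tuft and microfold cells of the gut, skeletal muscle or endocrine cells. They display self-antigens of those tissues inside the thymus, where developing T cells that react to self are deleted or diverted, and each type depends on the lineage transcription factor of its peripheral counterpart.

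Summed depth was 3165686 and 3116663 UMIs in the B6 mice and 5944625 and 9155637 UMIs in the BALB/c mice. Over all members depth per cell was alike, with medians from 13585 to 14844 UMIs. By class it was not. In the tuft-like cells named below the median was 8854 UMIs in B6 and 15512 in BALB/c, and in the other cells 18661.5 and 13399. The link from hashtag to strain was read first from H2-Ea, a class II gene whose promoter is deleted in the H2-b haplotype of B6 and intact in BALB/c. H2-Ea stood at 59.4 and 14.4 CPM (UMIs scaled to a common total per mouse) in the B6 mice and at 1035 and 840.0 CPM in the BALB/c mice. Transcripts seen almost only in 1 strain placed 145 cells of B6 mouse 1 with their own strain, 9 with the other and 26 with neither. The same counts were 170, 0 and 18 in B6 mouse 2, 356, 1 and 4 in BALB/c mouse 1 and 511, 13 and 16 in BALB/c mouse 2, so a small number of cells went against their hashtag. B and plasma cell markers summed to 247 CPM in B6 mouse 1 and to 9504, 7976 and 6507 CPM in B6 mouse 2 and BALB/c mice 1 and 2, and to between 211 and 268 CPM in the 4 mice without 7 plasma cell barcodes (0 and 2 from B6, 2 and 3 from BALB/c). Fibroblast markers lay between 17.1 and 28.8 CPM and endothelial markers between 26.7 and 32.1 CPM in the 4 mice, with Cdh5 and Kdr at 0.

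Clustering gave 14 clusters, and a cluster was named only from listed markers. Neuroendocrine-like cells, which carry granins and synaptic genes, made up 11.1% and 14.4% of the cells in the B6 mice and 2.77% and 1.11% in the BALB/c mice. Cluster 0, led by Spink1, Tgm2, Serpinb11 and Sftpd and carrying both enterocyte-hepatocyte and secretory markers, made up 14.4% and 18.1% in B6 and 8.31% and 4.63% in BALB/c. Both classes were smaller in BALB/c, by log2 -2.78 (SE 0.52, adjusted p = 5e-05, edgeR's quasi-likelihood test with Benjamini-Hochberg adjustment over 10 classes) and log2 -1.37 (SE 0.42, adjusted p = 0.00658). Microfold-like cells, relatives of the gut cells that hand antigen to lymphoid follicles, numbered 9 and 15 in the B6 mice and 1 and 3 in the BALB/c mice, too few for a test. Muscle-like cells numbered 0 and 0 in B6 and 9 and 16 in BALB/c, and 0 of 368 cells allows a share of up to 0.815%, for counting error only.

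Of 4 clusters whose best match was the immature mTEC list, 3 were called larger in BALB/c. The other, cluster 8, held 0 and 1 cells of B6 and 3 and 10 of BALB/c and was not called (log2 2.19, SE 1.25, adjusted p = 0.0981). Cluster 4, led by Tagln, Scx, Acta2 and the chemokine gene Ccl21a, made up 1.67% and 4.26% of B6 cells against 10.8% and 15.7% of BALB/c cells in the 2 mice of each (log2 2.15, SE 0.51, adjusted p = 0.000686). Cluster 3, with Antxr1 and Inpp4b among its leading genes and a median of only 4490 UMIs, took 1.11% and 1.60% against 14.96% and 12.8% (log2 3.30, SE 0.62, adjusted p = 5e-05). Cluster 11, led by genes such as Zfp521 and Edar, took 2.22% and 3.72% against 10.2% and 9.44% (log2 1.70, SE 0.55, adjusted p = 0.00841). In clusters 3, 4 and 11 both BALB/c mice lay above both B6 mice. The rule for members asks for no mimetic marker, so sums over all members hold these cells too. Clusters 3, 4 and 11 gave 5, 11 and 11 of the B6 members and 123, 124 and 88 of the BALB/c members. The call for cluster 11 was lost when genes called between the strains were kept out of the clustering (adjusted p = 0.0967) and without B6 mouse 1 (0.0659), and cluster 0 missed the threshold at a finer clustering (0.0518). Tuft-like cells, the largest class, stood at 47.8% and 33.0% in the B6 mice against 25.5% and 26.9% (log2 -0.62, SE 0.29, adjusted p = 0.0697). Their share passed the threshold at a coarser clustering, and ran from log2 -0.86 to -0.33 when 1 of the 6 mice was left out. Proliferating-like cells took 6.67% and 3.19% against 7.76% and 11.3% (log2 0.97, SE 0.48, adjusted p = 0.0737). They were called when genes called between the strains were kept out of the clustering (adjusted p = 0.0234). Immature mTEC markers, among them the genes of the 2 proteins that the sort gated out, summed to 922 and 1526 CPM in the B6 mice and 3822 and 4075 CPM in the BALB/c mice. Krt5 and Krt14 of that list also chose the members, and the other 5 markers summed to 547 and 947 against 2419 and 2748 CPM. Pdpn stood at 1.90 and 3.85 CPM against 17.7 and 14.6 CPM and Itgb4 at 31.0 and 39.5 against 81.9 and 76.7 CPM. Both BALB/c mice lay above both B6 mice in each, as they did in 31% of all tested genes. The part of the sort gate in these shares was not tested.

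**Figure D1:**
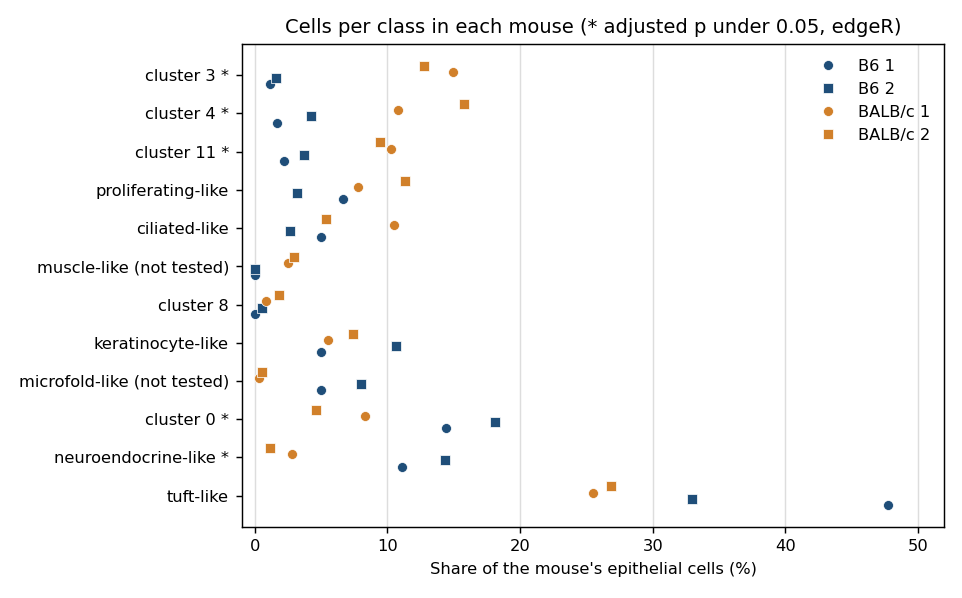
Share of the epithelial cells of each mouse (x axis, percent) in each named class or numbered cluster (y axis), with 1 point per mouse, colours for strain and circles and squares for mice 1 and 2. Both BALB/c mice lie above both B6 mice in clusters 3, 4 and 11 and below them in neuroendocrine-like cells and cluster 0, the 5 classes whose star marks an adjusted p under 0.05.

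Counts were next summed over all members of a mouse, and 15067 genes were tested. Of these, 757 were higher in BALB/c (5.02%) and 801 were lower (5.32%) at an adjusted p of 0.05. Without 1 of the 4 compared mice the higher calls numbered 214 to 361 and the lower ones 143 to 400. Ranges given below for leaving out 1 mouse are over these 4 mice. Without the plasma cell barcodes 727 and 785 genes were called. Of 106 genes named by rule and tested in these sums, not all of them called, 30 lost the call without B6 mouse 1 and 37 without B6 mouse 2. Without BALB/c mouse 1 the call was lost in 49 and without BALB/c mouse 2 in 51, with 0 reversals. Without barcodes that held 2 or more UMIs of proliferation genes, 188 B6 and 479 BALB/c cells were left, and 30 of the named genes lost the call, Hamp, Ccl9, Cntnap2, Serpinb6a and Cd81 among them. Both BALB/c mice lay above both B6 mice in 4676 genes (31%) and below them in 4336 (28.8%), whether called or not. A sum over cells rises with the number of cells that make an RNA and with the amount in each cell, and the 2 cannot be told apart in these sums. The log2 differences below are BALB/c minus B6 on the scale of the fit, from edgeR's quasi-likelihood test with Benjamini-Hochberg adjustment over all 15067 genes.

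**Figure D2:**
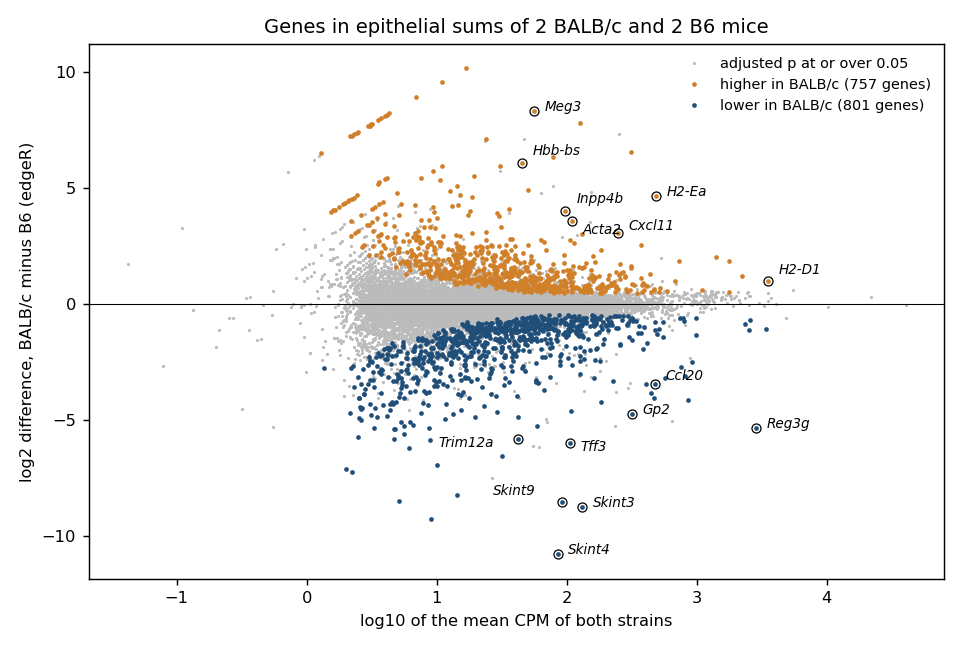
Log2 difference of each tested gene between BALB/c and B6 (y axis) against the log10 of its mean CPM over both strains (x axis) in the sums over epithelial cells. Orange points are the 757 genes higher and blue points the 801 genes lower in BALB/c, grey points were not called, and circled genes are labelled.

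Interferon-stimulated genes were higher in BALB/c as a group. Interferons act through receptors that switch on transcription factors such as Stat2 and Irf9, and mTEC are known to make interferon and to answer it without infection. Of 51 listed genes, all tested, 35 were higher in BALB/c and 1 lower, against 5.02% and 5.32% of all genes. Their median log2 difference was 1.20, against 0.00 over all genes, and both BALB/c mice lay above both B6 mice in 44 of them, against 31% of all genes. Isg15, a ubiquitin-like effector, stood at 107 and 131 CPM in the B6 mice and 375 and 413 CPM in the BALB/c mice. Ifi44, a cytoplasmic antiviral protein gene, stood at 16.7 and 18.9 CPM against 134 and 97.8 CPM. The groups did not overlap in either gene, with log2 differences of 1.72 (SE 0.17, adjusted p = 0.00265) for Isg15 and 2.68 (SE 0.19, adjusted p = 0.00106) for Ifi44. Ifit3b, of the family that binds viral RNA, rose from 3.79 and 4.17 CPM to 39.4 and 27.1 CPM (log2 3.04, SE 0.27, adjusted p = 0.00189), and Ifi27l2a, with the highest level among these 4, from 772 and 759 to 2472 and 3084 CPM (log2 1.85, SE 0.15, adjusted p = 0.0015). The count of higher members was 19 without B6 mouse 1, 29 without B6 mouse 2, 20 without BALB/c mouse 1 and 21 without BALB/c mouse 2.

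Within the list, the GTPase genes Iigp1 (log2 2.64), Mx1 (2.41), Igtp (2.21) and Irgm2 (1.89) and the RNA sensor gene Ddx58 (1.42) were among those higher. Factors that carry the interferon signal were higher too, Irf7 by log2 1.26, Stat2 by 0.997 and Irf9 by 0.69. Isg20, an exonuclease gene, was the member that fell, from 63.2 and 68.7 CPM to 38.2 and 30.4 CPM (log2 -0.96, SE 0.16, adjusted p = 0.0128). The interferon-gamma-linked factor genes Irf1 (log2 0.04) and Irf8 (-0.09) did not pass the test, nor did Oasl2 (141 and 133 CPM against 191 and 171 CPM, log2 0.40, adjusted p = 0.0782) and Ly6e (634 and 820.4 CPM against 559.7 and 414 CPM, log2 -0.59, adjusted p = 0.0998). Among 11 tested genes of interferons, their receptors and kinases, Ifnlr1 was the member called. This gene of the interferon lambda receptor chain stood at 1.26 and 3.85 CPM in B6 and 13.8 and 15.7 CPM in BALB/c (log2 2.52, SE 0.43, adjusted p = 0.0147). Its call was lost without BALB/c mouse 1 (adjusted p = 0.0555) or BALB/c mouse 2 (0.0861), and it was not called in tuft-like cells (log2 1.19, adjusted p = 0.212). The type I and type II receptor genes Ifnar1 (log2 0.13), Ifnar2 (0.36), Ifngr1 (0.37) and Ifngr2 (0.04) were not called.

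The factor complex that holds Stat2 and Irf9 binds a DNA element of paired GAAA blocks, so the 250 bases before the start of each gene were searched for GAAANNGAAA on both strands (TTTCNNTTTC on the other). Sequences were those of RefSeq on GRCm38.p6, matched by symbol. Of the 35 members higher in BALB/c, 25 had a promoter entry and 15 of these held the motif (60%). Of the 15 members not called, 10 had an entry and 2 held it (20%). The motif was present in 378 of the 11331 tested genes with an entry (3.34%) and in 2.98% of all 32851 promoters. The list was drawn up as genes that answer interferon, so its share against all genes says nothing of the strains. The shares of members called and not called were not tested against each other. The 3 promoters printed here, chosen after their values were seen, show the motif 3 times (Isg15), 2 times (Ifit3b) and not at all (Ifi44) among genes that were all higher in BALB/c. Capitals mark motif matches, and each sequence runs 5′ to 3′ on the strand of its gene and ends at the base before the start.
Isg15 (chr4:156200819-156201068, minus strand): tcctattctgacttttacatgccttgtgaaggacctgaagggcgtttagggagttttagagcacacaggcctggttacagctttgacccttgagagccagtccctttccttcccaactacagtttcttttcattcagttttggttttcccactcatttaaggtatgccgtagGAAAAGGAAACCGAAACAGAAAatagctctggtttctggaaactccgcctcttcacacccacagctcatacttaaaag
Ifit3b (chr19:34607707-34607956, plus strand): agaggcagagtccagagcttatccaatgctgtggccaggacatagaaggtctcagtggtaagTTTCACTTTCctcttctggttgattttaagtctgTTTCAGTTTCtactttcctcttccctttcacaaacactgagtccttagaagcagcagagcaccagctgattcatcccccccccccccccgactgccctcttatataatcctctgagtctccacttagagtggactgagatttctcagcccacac
Ifi44 (chr3:151749911-151750160, minus strand): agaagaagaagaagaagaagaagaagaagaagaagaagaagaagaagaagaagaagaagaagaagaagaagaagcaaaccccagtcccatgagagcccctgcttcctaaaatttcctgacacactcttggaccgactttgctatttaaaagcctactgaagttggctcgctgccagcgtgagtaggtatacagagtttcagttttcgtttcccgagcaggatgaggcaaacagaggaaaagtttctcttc
In Isg15 the matches start 78, 72 and 66 bases before the gene's start and overlap into 1 run, and in Ifit3b they start 188 and 154 bases before it. A match of these letters is a description and shows no binding. Only exact matches were counted, so a promoter without one, such as that of Ifi44, can still hold a near match.

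By class, the interferon-stimulated genes stood higher in both BALB/c mice in some classes and overlapped between the strains in others. Summed over the list, they stood at 4099.9 and 4631 CPM in all members of the B6 mice and at 9067 and 8564 CPM in those of the BALB/c mice. Ciliated-like cells held 6497 and 5095 CPM in B6, from 9 and 5 cells, and 20821 and 19724 CPM in BALB/c. Cluster 4, itself larger in BALB/c, held high sums under the hashtags of both strains, 14518 and 12769.5 CPM in B6 (3 and 8 cells) and 16255 and 15855 CPM in BALB/c. Its B6 cells also held Gm15772, a transcript near absent from the other B6 cells, at 211 CPM against 873 CPM in BALB/c. Whether some of them were BALB/c cells was not tested. Cluster 3 held 7475 and 4170 CPM in B6 (2 and 3 cells) and 12000 and 13491 CPM in BALB/c, and cluster 11 held 4677 and 5404 CPM (4 and 7 cells) against 6224 and 7385 CPM. The ranges overlapped in proliferating-like cells, at 3010 and 4741 against 3626 and 3893 CPM. In cluster 0 they overlapped too, at 4367 and 5722 CPM against 6171 and 5285 CPM, and in keratinocyte-like cells the B6 mice stood at 7194 and 5561 and the BALB/c mice at 2785 and 5758 CPM. In neuroendocrine-like cells both BALB/c mice lay below both B6 mice (3669 and 2485 against 2374 and 1781 CPM). These sums by class were read after the list's result was known and carry no test.

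Tuft-like cells held 2999 and 3283 CPM of the list in B6 and 6253 and 7071 CPM in BALB/c. Of the 10628 genes tested in these cells, 813 were higher (7.65%) and 813 lower (7.65%), and of 41 interferon-stimulated genes 20 were higher and 1 was lower. The class was made of clusters 2, 7 and 12. Cluster 7 held 73 of the 86 tuft-like cells of B6 mouse 1 and 49 of the 62 of B6 mouse 2, but 39 of 92 and 54 of 145 in the BALB/c mice, where cluster 12 held 31 and 52 cells. In cluster 7 alone the list stood at 2492 and 3271 CPM in B6 and 2446 and 2334 CPM in BALB/c, and of 32 members tested there 0 were higher (2 at an unadjusted p under 0.05) and Ly6e was lower (85 of 8168 genes higher, 1.04%, and 82 lower, 1%, in that cluster). In cluster 2 the list stood at 1964 and 3277 CPM in B6 (11 cells in each mouse) and at 5072 and 7548 CPM in BALB/c (22 and 39 cells), with both BALB/c mice above both B6 mice. In cluster 12 the BALB/c cells held 10551 and 9624 CPM, and the B6 mice, with 2 cells each, 14899 and 3830 CPM. The list thus did not differ in that direction in cluster 7, which held most B6 tuft-like cells, while it stood higher in BALB/c in cluster 2, where no test was made.

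**Figure D3:**
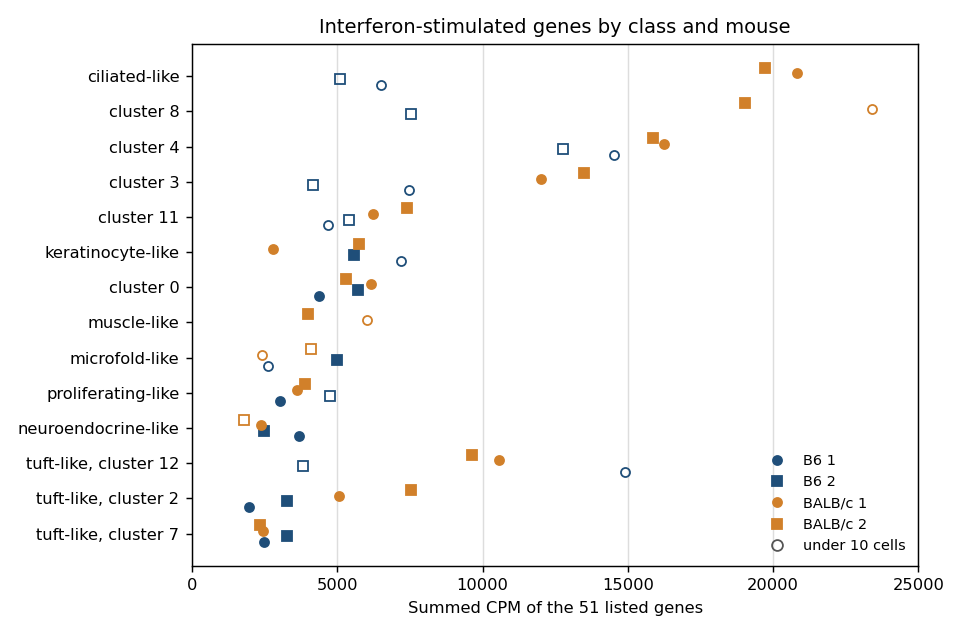
Summed CPM of the 51 interferon-stimulated genes (x axis) in each class or cluster (y axis), with the tuft-like clusters shown apart, 1 point per mouse, colours for strain and open points for sums of under 10 cells. BALB/c mice lie above B6 mice in ciliated-like cells, clusters 3, 4 and 11 and tuft-like cluster 2, and the strains overlap in cluster 0 and in keratinocyte-like and proliferating-like cells.

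When class was taken out, fewer differences passed. This fit used sums over 10 or more cells of a class in a mouse, for tuft-, keratinocyte-, neuroendocrine- and proliferating-like cells and cluster 0, and it called 286 of 11653 genes higher (2.45%) and 365 lower (3.13%) with limma's voom and Benjamini-Hochberg adjustment. Of the genes called in the sums, 176 higher (23.2% of those calls) and 217 lower (27.1%) were called the same way there. Of 45 interferon-stimulated genes it called 13 higher and 1 lower. Irgm2 (log2 1.89), Igtp (1.90), Ifi44 (2.45), Mx1 (1.89) and Isg15 (1.52) were among the higher ones, and Ly6e was the lower one (-1.41). Clusters 3, 4 and 11 and ciliated-like cells had too few B6 cells for this fit, so it does not cover several classes with high interferon-stimulated sums. Several of its 20 sums came from the same mouse, and their fitted correlation within a mouse was -0.051. The p-values of this fit thus treat them as nearly independent and can be too small.

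**Figure D4:**
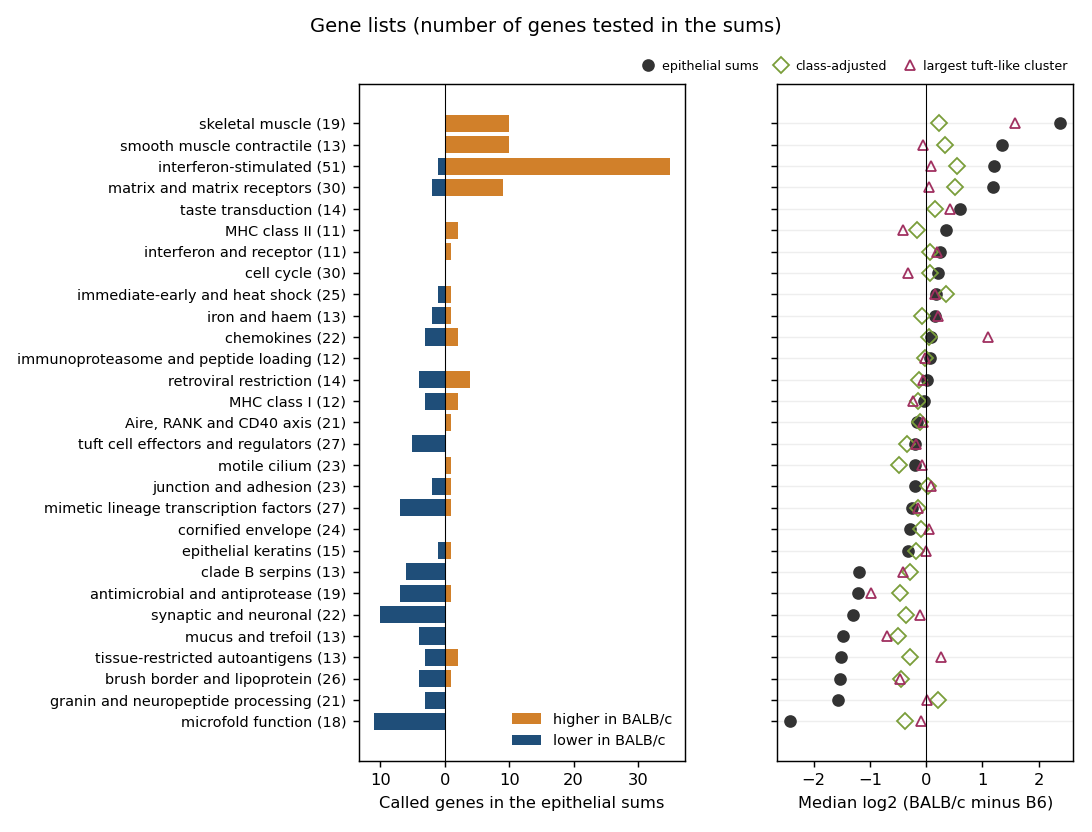
Number of genes of each list called higher (orange, to the right) and lower (blue, to the left) in BALB/c in the sums (left panel, x axis in genes), and the median log2 difference of each list (right panel, x axis in log2) in the sums, in the fit with class taken out and in tuft-like cluster 7. Interferon-stimulated and muscle lists have the most higher calls, and microfold and synaptic lists the most lower calls, with 11 and 10; the keratin list holds genes that also chose the members.

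Genes of microfold function were lower in BALB/c, 11 of 18 tested against 5.32% of all genes, with 0 higher and a median of log2 -2.41. Gp2, the receptor by which microfold cells take up bacteria, stood at 661 and 557 CPM in the B6 mice and at 23.4 and 22.2 CPM in the BALB/c mice. Pglyrp1, which binds bacterial peptidoglycan, stood at 1866 and 1409 CPM against 119 and 66.2 CPM. The chemokine gene Ccl9 stood at 210.4 and 207 CPM against 6.39 and 10.5 CPM. Both BALB/c mice lay far below both B6 mice in all 3 genes, by log2 -4.75 (SE 0.77, adjusted p = 0.0324), -4.16 (SE 0.35, adjusted p = 0.00304) and -4.60 (SE 0.51, adjusted p = 0.00915). Hamp, the gene of the iron hormone hepcidin, fell from 916 and 742 CPM to 61.1 and 55.2 CPM (log2 -3.84, SE 0.16, adjusted p = 0.000127), and Ccl20, which draws cells with the receptor CCR6, from 785 and 958 to 37.8 and 121 CPM (log2 -3.44, SE 0.60, adjusted p = 0.0331). The lineage factors Sox8 (log2 -2.25) and Spib (-0.77) also fell. Microfold-like cells were 24 of 368 members in B6 and 4 of 901 in BALB/c, and 3 of 17 members of the list were lower with class taken out, where Hamp (log2 -1.16, adjusted p = 0.326) and Ccl20 (log2 -0.07, adjusted p = 0.974) were not called. Leaving out 1 mouse left 5 to 6 lower members, leaving out barcodes with proliferation UMIs left 7, and the calls of Gp2 and Ccl9 were lost without any 1 of the 4 mice (adjusted p from 0.132 to 0.234 for Gp2 and from 0.0561 to 0.0735 for Ccl9).

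Secreted defence and mucus genes were lower as well. Of 19 antimicrobial and antiprotease genes 7 were lower and 1 higher (median log2 -1.22), and of 13 mucus and trefoil genes 4 were lower and 0 higher (median log2 -1.47). Of all genes 5.32% were lower and 5.02% higher. Leaving out 1 mouse left 4 to 6 lower antimicrobial and antiprotease genes with 0 higher, and 2 to 6 lower mucus and trefoil genes. Reg3g, a lectin that kills Gram-positive bacteria, stood at 6316 and 4912 CPM in B6 and at 98.2 and 175 CPM in BALB/c (log2 -5.36, SE 0.40, adjusted p = 0.00275). Most of it lay in cluster 0, at 17959.5 CPM in B6 against 1733 in BALB/c, a difference that did not pass the test within that cluster (log2 -3.45, adjusted p = 0.254). In the sums, the call of Reg3g was lost with a hashtag share of 60% (log2 -4.34, adjusted p = 0.242). It was also lost without barcodes that held proliferation UMIs (log2 -6.06, adjusted p = 0.0624). Lyz1, the lysozyme of Paneth cells, fell from 786 and 995 to 39.9 and 65.9 CPM (log2 -4.07, SE 0.47, adjusted p = 0.00999). It was not called within cluster 0 (log2 0.21, adjusted p = 0.936) or with class taken out (log2 -1.72, adjusted p = 0.406), while Reg3g was called lower in the latter fit (log2 -3.40, adjusted p = 0.013). Fcgbp, a mucus protein, fell from 522 and 961 to 80.2 and 57.5 CPM (log2 -3.44, SE 0.35, adjusted p = 0.00595). Fcgbp was also lower within cluster 0 (log2 -4.58, adjusted p = 0.00432) and with class taken out (log2 -3.63, adjusted p = 0.000354), where 1 of 15 mucus and trefoil genes was lower.

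The trefoil factor genes, whose small peptides stabilise mucus and lie side by side on chromosome 17 (mm10), differed in how evenly they varied. Tff3 (31125306 to 31129646, minus strand) stood at 213 and 203 CPM in B6 and 3.70 and 2.84 CPM in BALB/c (log2 -6.01, SE 0.47, adjusted p = 0.0031). Tff2 (31141049 to 31144282) stood at 97.9 and 28.6 CPM against 0.336 and 0.874 CPM (log2 -6.54, SE 0.96, adjusted p = 0.0188). Tff1 (31161395 to 31165277) stood at 212 CPM in B6 mouse 1 but 6.74 CPM in B6 mouse 2, against 2.19 and 1.09 CPM, and was not called (log2 -6.12, SE 1.96, adjusted p = 0.156). Within cluster 0 Tff2 had 160 UMIs in B6 and 0 in BALB/c (144.5 and 143.7 CPM in the B6 mice), while Tff3 was not called there (log2 -4.48, adjusted p = 0.795). The call of Tff2 in the sums was lost without BALB/c mouse 1 (adjusted p = 0.132) or BALB/c mouse 2 (0.149), and that of Tff3 without BALB/c mouse 2 (0.0516). With a hashtag share of 60% the difference of Tff3 shrank to log2 -1.63 and was not called (adjusted p = 0.746).

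Clade B serpins, inhibitors of proteases inside cells, were lower in BALB/c in 6 of 13 tested members, against 5.32% of all genes, with 0 higher. Serpinb1a, which blocks neutrophil proteases, stood at 1469 and 1692 CPM in B6 and 255 and 297 CPM in BALB/c (log2 -2.52, SE 0.15, adjusted p = 0.000551). Serpinb6a stood at 1204 and 1426 CPM against 165 and 231 CPM (log2 -2.73, SE 0.23, adjusted p = 0.0021). With class taken out Serpinb1a was still lower (log2 -1.34, adjusted p = 0.0428) and Serpinb6a was not called (log2 -0.47, adjusted p = 0.105). Leaving out 1 mouse left 2 to 4 lower members of this list, and leaving out barcodes with proliferation UMIs left 3.

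Neuronal and endocrine genes were lower together with the neuroendocrine-like cells. Of 22 synaptic and neuronal genes 10 were lower and 0 higher (median log2 -1.29), and of 21 granin and peptide-processing genes 3 were lower and 0 higher (median log2 -1.57). Of all genes 5.32% were lower. Syt1, the calcium sensor of vesicle release, stood at 1222 and 1605 CPM in B6 and 621 and 509.9 CPM in BALB/c (log2 -1.33, SE 0.17, adjusted p = 0.006). Cntnap2, a neuronal adhesion gene, stood at 262 and 191 CPM against 23.9 and 32.2 CPM (log2 -3.01, SE 0.37, adjusted p = 0.00994). Cntnap2 was lower within tuft-like cells too (log2 -2.68, adjusted p = 0.000148), within cluster 0 (-4.90, 0.00343) and with class taken out (-3.01, 2.12e-05), but was not called in cluster 7 alone (-0.92, 0.701). The granin genes Chga (126 and 321 CPM against 80.7 and 21.6 CPM, log2 -2.16, adjusted p = 0.201) and Chgb (67.9 and 157 CPM against 49.1 and 15.6 CPM, log2 -1.83, adjusted p = 0.256) did not pass, and the factor Insm1 did (94.8 and 115 CPM against 46.1 and 55.6 CPM, log2 -1.04, SE 0.16, adjusted p = 0.00999). With class taken out Insm1 was not called (log2 -0.03, adjusted p = 0.957). Within neuroendocrine-like cells the granin list summed to 5059 and 7883 CPM in B6 and 9998 and 5719 CPM in BALB/c, and the ranges overlapped. Without BALB/c mouse 2, 1 synaptic gene stayed lower, and 3 to 6 did without each of the other mice. Without barcodes that held proliferation UMIs 5 were lower. Lower granin and peptide-processing genes numbered 0 to 2 without 1 mouse and 1 without those barcodes.

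Of 27 lineage transcription factors of mimetic cells 7 were lower and 1 was higher, against 5.32% and 5.02% of all genes. The gut and airway factors Foxa1 (43.9 and 34.97 CPM against 8.75 and 8.19 CPM, log2 -2.23, SE 0.21, adjusted p = 0.00224), Foxa2 (log2 -2.19) and Hnf4g (log2 -2.27) fell, as did the pancreatic factor Ptf1a (log2 -3.76). Foxa1 was also lower within tuft-like cells (log2 -2.46, adjusted p = 0.00182), and with class taken out 0 of 26 factors were lower in limma (3 at an unadjusted p under 0.05, and 0 in the edgeR version of that fit). Pax1, a factor of early thymic epithelium, was the one that rose (log2 0.88). Leaving out 1 mouse left 2 to 4 lower factors, the fewest without BALB/c mouse 2. Pou2f3, the tuft cell factor (log2 -0.49, adjusted p = 0.131), Aire, which drives ectopic expression of tissue genes (69.5 and 27.9 CPM against 109.7 and 77.9 CPM, log2 0.93, adjusted p = 0.266), and Fezf2 (log2 0.33, adjusted p = 0.309) were not called.

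Muscle genes were higher in BALB/c. Of 19 skeletal muscle genes 10 were higher, against 5.02% of all genes, and 0 lower (median log2 2.38). Leaving out 1 mouse left only 1 to 3 higher, and leaving out the barcodes with proliferation UMIs left 1. Ckm, the creatine kinase of muscle, stood at 1.58 and 0 CPM in B6 and 40.0 and 35.6 CPM in BALB/c (log2 5.51, SE 0.97, adjusted p = 0.0258), a call lost without any 1 of the 4 mice (adjusted p from 0.0647 to 0.140). Tnnt3, a fast-muscle troponin, had 0 UMIs in B6 and 117 in BALB/c. The master regulator gene Myog stood at 44.9 and 3.85 CPM in B6 and at 233 and 326 CPM in BALB/c and was not called (log2 3.51, SE 1.36, adjusted p = 0.216). Muscle-like cells were found only under BALB/c hashtags among the 4 mice.

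Of 13 smooth muscle contractile genes 10 were higher, against 5.02% of all genes, and 0 lower (median log2 1.36). Acta2, smooth muscle actin, stood at 12.3 and 21.5 CPM in B6 and 199 and 204 CPM in BALB/c (log2 3.57, SE 0.25, adjusted p = 0.00122). In cluster 4, Acta2 stood at 347 CPM for B6, from 11 cells, against 1084 for BALB/c. Those 11 cells also held Gm15772, a transcript near absent from the other B6 cells, at 211 CPM against 873 CPM in BALB/c. Whether some of them were BALB/c cells was not tested. Acta2 was not called with class taken out (log2 1.72, adjusted p = 0.463), a fit without cluster 4. Of 30 matrix genes 9 were higher and 2 lower (median log2 1.19), against 5.02% and 5.32% of all genes. The higher ones included Col12a1 (6.63 and 11.6 CPM against 70.0 and 58.5 CPM, log2 2.81) and Antxr1, a collagen receptor (2.53 and 8.98 against 59.2 and 55.4 CPM, log2 3.31). Krt14, the basal keratin gene, stood at 93.8 and 129 against 635 and 647 CPM, and no test is given because it is 1 of the genes that chose the members. Ccl21a, the chemokine that draws positively selected thymocytes to the medulla, rose from 379.7 and 734 to 2051 and 2426 CPM (log2 2.00, SE 0.32, adjusted p = 0.0182) and was not called with class taken out (log2 1.15, adjusted p = 0.261). These genes lead or mark clusters 3 and 4, which were larger in BALB/c. Smooth muscle calls without 1 mouse numbered 6 to 7, and matrix calls 5 to 11.

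Genes of MHC class I differed in both directions. H2-D1, a classical class I heavy chain, stood at 2376 and 2373 CPM in B6 and 4806 and 4612 CPM in BALB/c (log2 0.98, SE 0.13, adjusted p = 0.00675). H2-K1, the other heavy chain measured, stood at 3073 and 3311 CPM against 2103 and 1885 CPM (log2 -0.69, SE 0.13, adjusted p = 0.0217). The nonclassical H2-Q7 stood at 633 and 682 against 312 and 291 CPM (log2 -1.13, SE 0.12, adjusted p = 0.00286), and H2-Q6 fell by log2 0.89. The light chain B2m (log2 -0.08, adjusted p = 0.742) and all 12 tested genes of the immunoproteasome and peptide loading were not called (3 higher and 0 lower at an unadjusted p under 0.05, 0 by DESeq2), although these genes answer interferon in many cells. In tuft-like cells H2-D1 was higher by log2 1.099 (adjusted p = 0.000348) and H2-Q6 lower by log2 1.17, and both held with class taken out (0.90 and -1.0002). Class I genes are near-identical copies that differ between haplotypes (b in B6, d in BALB/c), and reads of 1 copy can be counted under another on the reference genome, so these values are uncertain.

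In class II, Ciita, the master activator of the pathway, rose from 30.6 and 29.8 CPM to 60.9 and 60.4 CPM (log2 0.996, SE 0.12, adjusted p = 0.00556). It was not called with class taken out (log2 0.11, adjusted p = 0.849), in cluster 0 (log2 1.05, adjusted p = 0.405) or in the sums without barcodes that held proliferation UMIs (adjusted p = 0.0643). H2-Aa (log2 0.35, adjusted p = 0.175), H2-Ab1 (log2 0.50, adjusted p = 0.0534) and Cd74 (log2 0.26, adjusted p = 0.313) were not called. Both BALB/c mice lay above both B6 mice in each, as they did in 31% of all tested genes. H2-Ea itself was higher in the sums (log2 4.66, SE 0.69, adjusted p = 0.0231), in cluster 0 (log2 7.38, adjusted p = 0.0331) and with class taken out (log2 4.26, adjusted p = 0.0013), but not in tuft-like cells, where it stood at 16.5 CPM for B6 against 30.04 for BALB/c. The call of H2-Ea in the sums was lost without BALB/c mouse 1 (adjusted p = 0.117) or BALB/c mouse 2 (0.121).

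Some of the largest differences fell on tight families of neighbouring genes. Skint genes encode butyrophilin-like membrane proteins of thymic and skin epithelium, and Skint1 is needed for the development of the gamma delta T cells of mouse epidermis. On chromosome 4 (mm10), Skint4 (112072016 to 112168076, plus strand) stood at 139 and 202 CPM in B6 and at 0.168 and 0 CPM in BALB/c. Skint3 (112232245 to 112300468, plus strand) stood at 179 and 347 CPM against 0.168 and 0.874 CPM, and Skint9 (112385969 to 112433985, minus strand) at 185 and 179.7 CPM against 0.336 and 0.546 CPM. These 3 neighbours were thus near absent from BALB/c cells, with 1067 UMIs in B6 and 1 in BALB/c for Skint4, 1648 and 9 for Skint3 and 1147 and 7 for Skint9. The depth-scaled ratio for Skint4 was 2565 (95% interval 459 to 101392, counting error only), and the log2 differences were -8.74 (SE 0.64, adjusted p = 0.00307) for Skint3 and -8.54 (SE 0.23, adjusted p = 2.35e-05) for Skint9.

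In the sums, the rest of the family differed by less or was not called. Skint1 (112006269 to 112029538, plus strand) stood at 121 and 123 CPM in B6 and 43.2 and 42.9 CPM in BALB/c (log2 -1.51, SE 0.12, adjusted p = 0.00129). Within tuft-like cells Skint1 stood at 104 and 89.5 CPM against 1.99 and 3.02 CPM (log2 -5.20, adjusted p = 7.93e-09). Skint2, on the other side of the block, stood at 172 and 204 CPM against 71.5 and 76.5 CPM (log2 -1.35, SE 0.28, adjusted p = 0.0346), and Skint6 fell by log2 1.70. Skint8 (46.8 and 60 against 65.1 and 59.4 CPM), Skint7 (79.9 and 116 against 87.6 and 102 CPM) and Skint10 (199 and 243 against 183 and 197 CPM) were not called, nor were the low genes Skint5 and Skint11. Of the 11 tested members, 6 were lower and 0 higher. Skint3, Skint4 and Skint9 were lower within tuft-like cells as well, where Skint9 had 319 UMIs in B6 and 0 in BALB/c and Skint3 132 and 0, and in keratinocyte-like cells Skint3 had 829 UMIs in B6 and 1 in BALB/c. With class taken out the 3 genes were called lower as well (adjusted p = 8.31e-06, 9.46e-08 and 3.84e-05), and in the sums their calls held without each mouse in turn.

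A second block lay on chromosome 7 and held tripartite motif (Trim) genes, the mouse relatives of the retroviral restriction factor TRIM5. Trim12a (104299894 to 104315466, minus strand) stood at 89.7 and 75.7 CPM in B6 and at 2.02 and 0.983 CPM in BALB/c (log2 -5.84, SE 0.32, adjusted p = 0.000965). Trim5 (104263386 to 104288094, minus strand) stood at 14.8 and 14.4 CPM against 0.505 and 0.546 CPM, and Trim30d (104470014 to 104507849, minus strand) at 6.95 and 9.95 CPM against 0.168 and 0.437 CPM. Neighbours in the same block went the other way. Trim34b (104329471 to 104336909, plus strand) stood at 0.316 and 0.963 CPM in B6 and 7.57 and 7.10 CPM in BALB/c (log2 3.46, SE 0.61, adjusted p = 0.016), and Trim12c at 43.0 and 41.7 CPM against 63.2 and 62.7 CPM (log2 0.57, SE 0.14, adjusted p = 0.049). Trim34a fell by log2 1.61 and Trim6 (log2 -1.02, adjusted p = 0.135) and Trim30a (log2 0.92, adjusted p = 0.0515) were not called. In tuft-like cells, where Trim12a was highest in B6, it stood at 213 and 219 CPM against 0.662 and 1.13 CPM (log2 -7.72, adjusted p = 3.49e-11), and in cluster 7 alone it had 168 and 130 UMIs against 0 and 1 (adjusted p = 1.45e-07).

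Retroviral restriction genes as a list split evenly, with 4 of 14 higher and 4 lower, against 5.02% and 5.32% of all genes. The higher ones were Mx1, Mx2, Bst2, a tether of budding virions (139.9 and 163 against 529.9 and 422 CPM, log2 1.64), and Trim12c, of which Mx1, Mx2 and Bst2 are also interferon-stimulated. The lower ones were Trim12a, Trim5, Trim30d and the cytidine deaminase gene Apobec3 (211 and 226 CPM against 52.5 and 55.6 CPM, log2 -2.02, SE 0.13, adjusted p = 0.000894). Without 1 mouse the lower members numbered 4 each time and the higher ones 2 to 4.

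The clade A serpins on chromosome 12, secreted inhibitors best known from liver, also moved in both directions within 1 block. Serpina1b stood at 14.5 and 61.9 CPM in B6 and 1.85 and 0.874 CPM in BALB/c (log2 -4.86, SE 0.86, adjusted p = 0.027), and Serpina3j at 40.4 and 51.02 CPM against 5.55 and 5.68 CPM (log2 -3.02, SE 0.24, adjusted p = 0.00146). Serpina3n, some of whose neighbours are near-identical copies, had 0 UMIs in B6 and 213 in BALB/c, 13.5 and 14.5 CPM, which is at least 29.5-fold higher when 3 UMIs over both B6 mice are taken as the limit. Serpina3h rose by log2 1.97 and Serpina3i by log2 1.15. The call of Serpina1b was lost without BALB/c mouse 1 (adjusted p = 0.131) or BALB/c mouse 2 (0.206). Reads of near-identical Skint, Trim and serpin copies can be counted under the wrong member when a strain's sequence differs from the reference, and how far that touched these values was not tested.

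**Figure D5:**
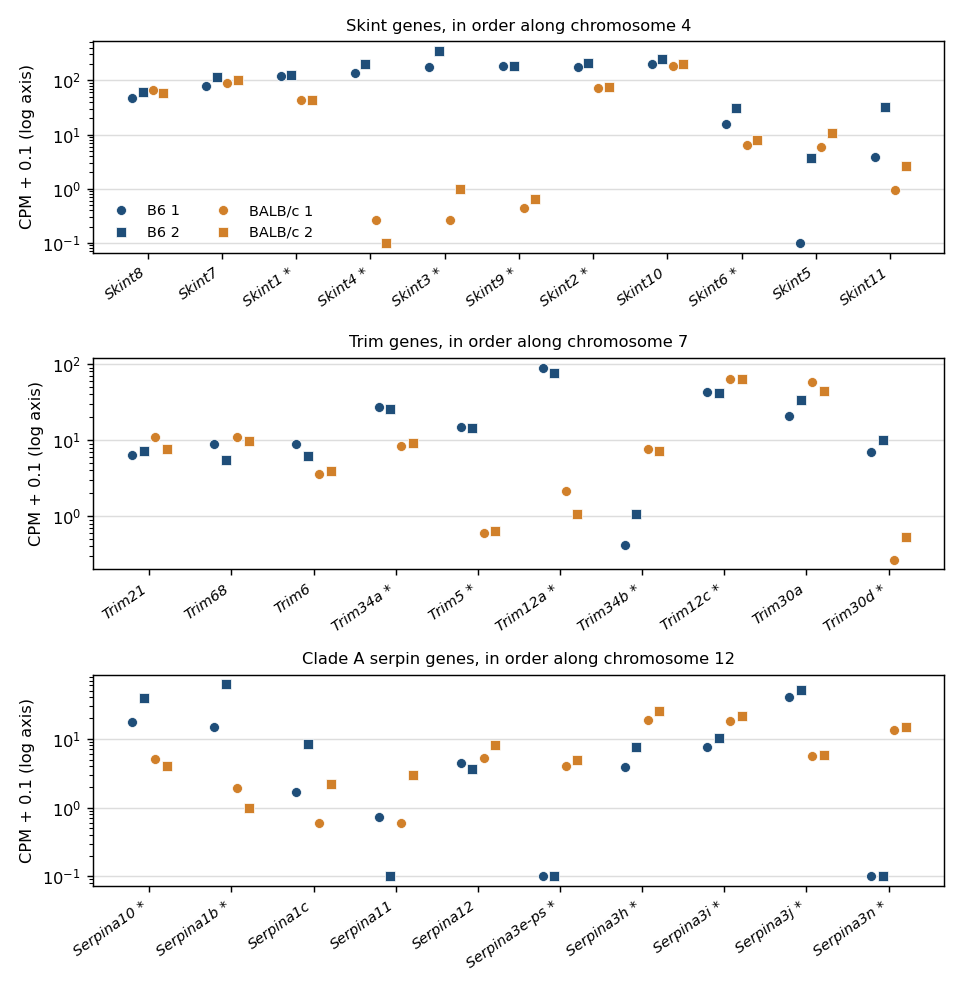
CPM plus 0.1 of each gene (y axis, log scale) in each mouse for the Skint, Trim and clade A serpin families, in the order of the genes along the chromosome (x axis), with colours for strain and a star for an adjusted p under 0.05. Skint4, Skint3 and Skint9 are neighbours that are high in both B6 mice and near 0 in both BALB/c mice, while Skint8, Skint7 and Skint10 lie close together in all 4 mice.

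Genes seen in 1 strain and nearly not in the other were counted by a limit of 3 UMIs over both mice of the lower strain and a mean of at least 10 CPM in the higher one. There were 10 such genes for BALB/c and 7 for B6. Meg3, an imprinted long noncoding RNA, had 2 UMIs in B6 and 1666 in BALB/c (0.316 and 0.321 against 119 and 105 CPM), a depth-scaled ratio of 347 (95% interval 95.8 to 2864). Its neighbour Dlk1 on chromosome 12, imprinted from the other parent, had 2 and 742 UMIs (ratio 154), and Rian, of the same locus, had 2 and 276. Meg3 and Rian are among the leading genes of the muscle-like cluster, and BALB/c neuroendocrine-like cells held Meg3 at 288 CPM and tuft-like cells at 40.6 CPM. With class taken out, a fit without muscle-like cells, the fitted difference of Meg3 was log2 2.77 against 8.32 in the sums (adjusted p = 0.0146), and that of Dlk1 was log2 1.94 against 7.11 and was not called (adjusted p = 0.483). At so few B6 UMIs these fitted values depend on the prior count. In tuft-like cells Dlk1 was called (adjusted p = 0.00251) and Meg3 was not (adjusted p = 0.104). With a hashtag share of 60% the difference of Meg3 fell to log2 3.97 and was not called (adjusted p = 0.0878). The call of Dlk1 was also lost without any 1 of the 4 mice (adjusted p from 0.0680 to 0.116). Tdgf1, the gene of a growth factor of early embryos that is among the leading genes of tuft-like cluster 12, had 0 UMIs in B6 and 370 in BALB/c, at least 51.3-fold higher by the same limit. Ighv4-2, an immunoglobulin gene segment with 0 and 471 UMIs, lay almost wholly in proliferating-like cells (465 UMIs) and was not tested without the plasma cell barcodes.

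On the B6 side, Stfa1, a stefin inhibitor of cathepsins, had 114 UMIs in B6 and 0 in BALB/c, at least 91.3-fold lower in BALB/c. Abo, the blood group glycosyltransferase gene, had 65 and 0 UMIs (10.7 and 9.95 CPM in the B6 mice), at least 52.1-fold lower. Cpb2, a carboxypeptidase of plasma, had 125 and 2 UMIs (ratio 150.2), and Grin2b, a glutamate receptor subunit, had 76 and 2 (ratio 91.3). Nlrp1b, an inflammasome sensor whose alleles differ between inbred strains, had 69 and 3 UMIs. Grin2b was also lower within tuft-like cells, with 34 UMIs in B6 and 1 in BALB/c (adjusted p = 0.000152), and with class taken out (adjusted p = 0.0202).

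Hbb-bs, a beta-globin chain, was higher in BALB/c at 94.5 and 83.2 CPM against B6 levels of 1.58 and 0.963 (log2 6.08, SE 0.25, adjusted p = 0.000127), and the call held without each mouse in turn. The UMIs lay in tuft-like cells. Of 237 BALB/c tuft-like cells 64 held a Hbb-bs UMI (27.0%), against 9 of 664 BALB/c cells of the other classes (1.36%) and 4 of 148 B6 tuft-like cells (2.70%), at median depths of 15512, 13399 and 8854 UMIs. In cluster 7 alone 43.6% and 33.3% of the cells of the BALB/c mice held one, 401 and 677 UMIs in 17 and 18 cells, against 3 and 1 UMIs in the B6 mice (adjusted p = 1.19e-08). Other red cell genes were at or near 0, since BALB/c tuft-like cells held 2 UMIs of Hba-a1 and 0 of Hba-a2 and Hbb-bt, and 3 of Alas2. Hbb-bs and Hbb-bt are near-identical copies that differ between haplotypes, so which of them the UMIs belong to is uncertain.

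Within tuft-like cells, genes of taste transduction were higher and several tuft regulators lower. Of 15 tested taste genes 7 were higher and 1 was lower in BALB/c, against 7.65% of all genes each way. Tas1r1, a subunit of the umami receptor, stood at 16.5 and 15.2 CPM in B6 and 49.7 and 62.6 CPM in BALB/c (log2 1.79, SE 0.27, adjusted p = 0.00035). Tas2r105, a bitter receptor, stood at 82.7 and 103 CPM against 183 and 277 CPM (log2 1.30, SE 0.22, adjusted p = 0.00178). The G protein subunit genes Gnb3 (log2 0.71), Gng13 (0.62) and Gnat3 (0.51), the calcium channel gene Itpr3 (0.91) and Rgs21 (0.70) were higher by less, and Trpm5, the cation channel at the end of the cascade, was lower (667 and 756 against 535 and 498 CPM, log2 -0.50, SE 0.16, adjusted p = 0.0429). In cluster 7 alone 3 of 11 taste genes were higher, Tas1r1 by log2 2.45 (adjusted p = 0.0177), Tas2r105 by 2.34 (0.0225) and Gnb3 by 0.96 (0.022), and 0 were lower.

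Of 27 tuft effectors and regulators 1 was higher and 6 were lower in tuft-like cells, against 7.65% of all genes each way. Pou2f3, the factor without which tuft cells do not form, stood at 502 and 477 CPM in B6 and 338 and 284 CPM in BALB/c (log2 -0.69, SE 0.16, adjusted p = 0.00769). The leukotriene receptor gene Cysltr2 (log2 -1.59), the kinase gene Bmx (-0.85), Dclk1 (-0.86), Alox5, which starts leukotriene synthesis (-0.66), and Fyb (-0.59) were lower, and the factor Hmx2 was higher (0.76). Of the 27, 0 passed in cluster 7 alone (1 lower at an unadjusted p under 0.05), with differences of log2 -0.50 for Cysltr2 and -0.38 for Fyb. The shift of cells between clusters 7, 2 and 12 described above lies beside these differences, and its part in them was not tested.

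Outside the lists, the largest differences in tuft-like cells among named-rule genes included Pianp and Ndufa4l2, with 0 UMIs in B6 and 145 and 155 in BALB/c, and on the lower side Spock3, with 138 and 0. Inpp4b, a phosphatase gene of phosphoinositide signalling, was higher in every fit that tested it: in the sums (10.1 and 12.5 against 183 and 186 CPM, log2 4.02, SE 0.18, adjusted p = 0.000171), in tuft-like cells (log2 3.72, adjusted p = 2.5e-07), in cluster 7 alone (3.24, 9.17e-05) and with class taken out (3.32, 4.78e-05). Tpm3-rs7, a processed relative of a tropomyosin gene, was higher in the same 4 fits (log2 3.94, 4.13, 3.66 and 3.83) and did not pass in cluster 0 (log2 3.44, adjusted p = 0.0713). Cd81, a tetraspanin, was higher in the sums (17.1 and 39.8 against 255 and 210.4 CPM, log2 3.02, SE 0.37, adjusted p = 0.00951), in cluster 0 (3.57, 0.0127) and with class taken out (3.66, 4.87e-05).

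Cluster 0 allowed few calls, with 16 of 7697 genes higher (0.208%) and 35 lower (0.455%). Skint4, Skint9, Tff2 and Lpl, lipoprotein lipase, each had at least 98 UMIs in its B6 cells and 0 in its BALB/c cells. Pglyrp1 was lower by log2 2.92 (adjusted p = 0.00432) and Ccl9 by log2 4.58 (adjusted p = 0.00965). On the higher side H2-Ea and Cd81 stood beside pseudogenes such as Gm15772, Gm6166 and Tmem181c-ps.

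Pseudogenes are given by count, and their share was not tested against that of coding genes. Of 244 tested pseudogenes, immunoglobulin segments left out, 37 were higher in BALB/c (15.2%) and 5 lower (2.05%), against 649 (5.002%) and 692 (5.33%) of 12975 protein-coding genes. The 244 include 13 annotated as polymorphic pseudogenes, 4 of them higher, a type that holds H2-Ea, whose promoter is intact in BALB/c. Gm15772 stood at 11.4 and 1.60 CPM in B6 and 590.5 and 654 CPM in BALB/c, and was high in every BALB/c class described, from 278 CPM in ciliated-like to 986 CPM in proliferating-like cells. Tmem181c-ps had 7 UMIs in B6 and 3671 in BALB/c. Of the 41 UMIs of Gm15772 under B6 hashtags, 34 lay in cluster 4, and whether BALB/c cells stood there under B6 hashtags was not tested. The reads were counted on mm10, the genome of a B6 mouse, and reads that a BALB/c copy or allele sends to a pseudogene cannot be told apart from RNA of that pseudogene in these counts.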

How the data were processed

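The values analysed are UMI counts per gene and droplet barcode, deposited by the authors and made with Cell Ranger 7.0.0 on mm10, the genome of a B6 mouse, per the submitters' processing notes; the annotation release is not given in the sources used here. The matrix held 55487 genes, and 6 of its 15 hashtags were those of these mice. The droplet filters and hashtag rule are given at the start of the results. Of the 1808 epithelial barcodes, 82 had under 100 hashtag UMIs and 234 had no hashtag at 80%, and both were left out, as barcodes that mix mice would be. By leading hashtag, 20% of B6 and 16.8% of BALB/c epithelial barcodes stayed unassigned. No other doublet caller was run, so doublets within a mouse remain.

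Cells were clustered with scanpy 1.11.5 (Python 3.11.15; 30 principal components, 15 neighbours, Leiden resolution 1). A name needed at least 3 listed markers and 30% of a list to pass. A cluster still kept its number when the next-best list reached 90% of the best list's share. It also did when more markers of another list led it, or when it was shallow and led by no marker of its list. Clusters that best matched the immature mTEC list kept their number unless its markers, and none of the next-best list, led them. UMIs were summed per mouse, or per class and mouse, and tested with edgeR 4.0.16 (quasi-likelihood, TMM factors, its low-count filter) in R 4.3.3. The sums over all members and the class shares were fitted with all 6 mice. The fits in tuft-like cells, cluster 7 alone and cluster 0 held only the 4 B6 and BALB/c mice, since each NOD mouse had under 10 cells there. The fit with class taken out used limma 3.58.1 (voom, mouse as a block), and DESeq2 1.42.0 was an alternative. That limma fit had 20 sums, several from the same mouse, and a fitted correlation within a mouse of -0.051. Its p-values therefore treat sums of 1 mouse as nearly independent. The threshold was an adjusted p of 0.05 (Benjamini-Hochberg). Limits for a count of 0 use 3 UMIs, and 95% intervals cover counting error only. The steps were tested on simulated data. With 2 mice a strain from 1 library, p-values of the fits with 1 sum per mouse measure the spread between these mice. An exact two-sided permutation test could not go below 0.333, so none is given. Gene positions are from GENCODE, matched by gene ID.

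Genes were named by rule: the 12 highest and 12 lowest log2 differences among called genes at 25 CPM or more whose strains did not overlap, leaving out predicted genes and pseudogenes by symbol; up to 4 called members of each list; 5 strain-restricted genes in each direction; and the 6 highest and lowest within a class. Genes of the Skint, Trim and clade A serpin families, red cell genes, and genes given only as uncalled or as further list members stand outside that count. So do the strain-restricted genes Rian, Abo and Nlrp1b, which ranked below the first 5 of their direction. The members, lists and tests were chosen with earlier results of these data known. Alternatives changed the hashtag share, the droplet filters, the low-count filter, the normalization, the tool, the clustering and the mice in the fit. Results for some items are not reported here.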

Additional observations from a re-analysis of the deposited data

How the results depend on the processing

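In the sums, 757 genes were higher and 801 lower. A hashtag share of 95% gave 473 and 484 and no low-count filter gave 1681 and 1565. Leaving out 1 mouse gave 214 to 768 higher and 143 to 889 lower genes, where 214 to 361 and 143 to 400 are the counts without 1 of the 4 compared mice and the rest are without a NOD mouse. In tuft-like cells (813 and 813), DESeq2 gave 237 and 340, a hashtag share of 95% gave 215 and 253, and cluster 7 alone, added after seeing the data, gave 85 and 82. Leaving out 1 mouse there gave 294 to 995 and 332 to 857. In cluster 0 (16 and 35), DESeq2 gave 26 and 70, a hashtag share of 95% gave 5 and 8, no low-count filter gave 216 and 384, and leaving out 1 mouse gave 10 to 173 and 11 to 271. With class taken out (286 and 365), edgeR without the mouse block gave 134 and 147, and leaving out 1 mouse gave 209 to 291 and 230 to 426. Classes with a called share numbered 5, and 5 to 6 without 1 mouse. The difference of Mylpf turned to log2 -1.08 without barcodes holding proliferation UMIs (adjusted p = 0.21), and the share of keratinocyte-like cells ran from log2 -0.69 to 0.39 without 1 mouse. The cause was not tested for any of these.

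The labels give B6 and BALB/c mice the numbers 1 and 2 but no shared litter or day, so the numbers were not taken as pairs. With the replicate number as a block, 96 of 106 named genes stayed on the same side of the threshold in the sums, tuft-like cells had 537 higher genes, and 3 classes had a called share. The fit without plasma cell barcodes was also added after seeing the data.

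Some classes could not be tested within, since B6 gave 3 and 8 cells of cluster 4 and 9 and 5 ciliated-like cells.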
